A study of Mus musculus with 8 samples.

Results

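The genes described here encode the lysosome's proton pump, its hydrolases and its membrane proteins, with regulators of the lysosome. They were chosen by symbol, and all 39 were found among the 55401 genes of the deposited count table. Each of the 39 passed the filter on low counts (at least 0.5 CPM in at least 1 library, where CPM is a count divided by its library's total and scaled up by the same factor in every library), as did 15202 genes in all. By role they fall into 8 subunits of the V1 sector of the pump, 8 V0 and accessory subunits, 13 hydrolases and hydrolase cofactors, 7 membrane and lipid handling proteins and 3 regulators. Poly(A) RNA was sequenced from mouse hepatic macrophages in 8 libraries, 2 for each of 4 groups. Normal livers came from WT mice of the C57BL/6J background on a standard diet, and steatotic livers from MC4R-KO mice of the same background on a Western diet (6 to 10 wk), so that genotype and diet cannot be told apart. The cells were selected with an antibody to F4/80 on magnetic columns, plated on collagen and cultured for 24 h in the presence of vehicle (Veh) or cholesterol crystals (CC). The crystals, solid particles that are engulfed and reach the lysosomes, were given at 500 μg/ml. The methods describe male mice for a longer feeding experiment. The age and sex of the mice behind these libraries, their number for each library and whether the libraries of a group are separate cultures are not given in the sources used here, so the p-values measure only the spread between these libraries, which may be technical.

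A lysosome digests what a cell engulfs, and its enzymes work at acid pH. The V-ATPase pumps protons into it: the cytosolic V1 sector hydrolyses ATP, and the membrane-bound V0 sector carries the protons. Macrophages of the liver rely on it to break down lipoproteins and dead cells. Cholesterol esters are cleaved by lysosomal acid lipase, and the free cholesterol leaves by way of NPC2 and NPC1. Many of these genes are targets of the transcription factors TFEB and TFE3, which bind an E-box in the promoters.

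For this reason the promoter windows of the members were searched for the core of that E-box, CACGTG, and for the full palindromic CLEAR element, which holds the core, on both strands. Both motifs read the same on either strand. RefSeq promoter windows (GRCm38.p6, 250 bases before to 50 after the start site) were matched for 33 of the 39 members. The core was present in 9 of the 33 (27.3%), against 11.7% of the 10458 tested genes with a window, 8.09% of all 27025 genes with a window and 7.15% of all 32851 windows of this length. The full element was present in 0 of the 33, and in 0.803% of the tested genes and 0.326% of all windows. The members with the core were *Atp6v1a*, *Atp6v0b*, *Atp6v0d1*, *Atp6v0e*, *Gaa*, *Gla*, *Glb1*, *Lamp1* and *Mcoln1*. *Atp6v1b2*, *Atp6v1c1*, *Atp6v1g1*, *Atp6v1h*, *Asah1* and *Npc1* had no window. Of the 9, *Atp6v1a*, *Atp6v0b*, *Atp6v0d1*, *Gaa* and *Mcoln1* were higher with CC in the libraries labelled steatotic. In that comparison 46.2% of all members and 12.0% of all tested genes were called higher. Of these 5, *Atp6v0d1* and *Gaa* were called higher with the label normal too. *Glb1* was lower with CC with both labels (-0.28 and -0.37 on the log2 scale), and *Lamp1*, *Gla* and *Atp6v0e* were not called in either CC comparison. The sequences of the first 5 are given with that of *Lamp1*, which held 4 cores, the most of any member. The stretches run 5′ to 3′ on the gene's strand from 170 bases before to 30 bases after the start site, with each core in capitals.
Atp6v1a: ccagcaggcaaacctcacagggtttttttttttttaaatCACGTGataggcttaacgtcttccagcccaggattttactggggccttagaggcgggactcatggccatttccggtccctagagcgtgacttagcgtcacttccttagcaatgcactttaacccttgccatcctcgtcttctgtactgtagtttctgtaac
Atp6v0b: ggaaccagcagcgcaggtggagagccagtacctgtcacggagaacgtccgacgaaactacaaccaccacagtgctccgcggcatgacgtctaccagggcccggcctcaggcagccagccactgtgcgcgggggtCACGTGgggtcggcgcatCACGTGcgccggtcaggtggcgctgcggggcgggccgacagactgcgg
Atp6v0d1: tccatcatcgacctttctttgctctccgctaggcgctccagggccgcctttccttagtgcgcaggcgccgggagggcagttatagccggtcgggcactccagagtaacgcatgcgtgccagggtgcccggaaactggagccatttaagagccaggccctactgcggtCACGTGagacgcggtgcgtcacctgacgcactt
Gaa: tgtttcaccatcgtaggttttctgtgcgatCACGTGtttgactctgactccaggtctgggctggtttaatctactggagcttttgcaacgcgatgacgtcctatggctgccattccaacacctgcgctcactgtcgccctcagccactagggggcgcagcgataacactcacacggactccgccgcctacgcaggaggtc
Mcoln1: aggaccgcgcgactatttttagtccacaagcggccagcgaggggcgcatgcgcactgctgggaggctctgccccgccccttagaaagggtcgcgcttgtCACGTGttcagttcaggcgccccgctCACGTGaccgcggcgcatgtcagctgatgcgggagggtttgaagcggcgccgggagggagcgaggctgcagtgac
Lamp1: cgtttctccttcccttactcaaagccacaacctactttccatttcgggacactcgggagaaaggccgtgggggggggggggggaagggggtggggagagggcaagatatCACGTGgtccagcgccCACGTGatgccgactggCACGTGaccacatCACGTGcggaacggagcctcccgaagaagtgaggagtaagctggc
These stretches lie at chr16:44139230-44139429 (*Atp6v1a*, minus strand), chr4:117887300-117887499 (*Atp6v0b*, minus strand), chr8:105566035-105566234 (*Atp6v0d1*, minus strand), chr11:119267793-119267992 (*Gaa*, plus strand), chr8:3500349-3500548 (*Mcoln1*, plus strand) and chr8:13158991-13159190 (*Lamp1*, plus strand). The core of *Atp6v0d1* spanned the start site, beginning 3 bases before it. The cores of *Mcoln1* began 71 and 45 bases before the start site and those of *Atp6v0b* 36 and 18 bases before it. A match is a run of letters, and binding was not measured here.

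**Figure D1:**
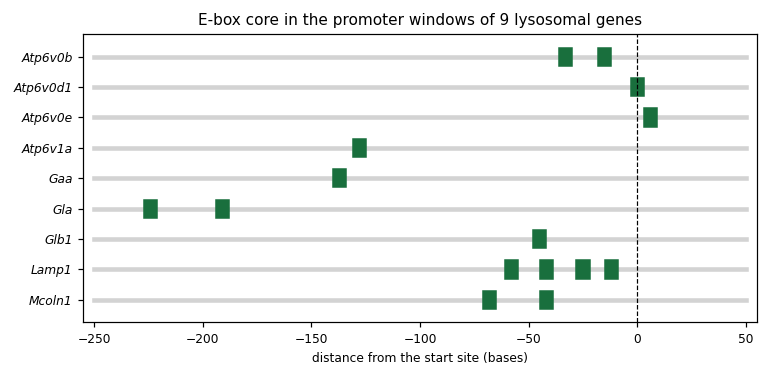
Position of the E-box core CACGTG (green boxes, to scale) in the RefSeq promoter windows of the 9 members that hold it, as distance in bases from the start site (dashed line), with the window in grey. *Lamp1* holds 4 cores, *Atp6v0b*, *Gla* and *Mcoln1* hold 2, and the core of *Atp6v0d1* lies on the start site.

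The libraries held 58668655 to 74529462 counts, and 3 counts correspond to 0.0403 to 0.0511 CPM (counting error only), far below the levels of the members. *Mc4r*, the targeted gene, had 0 counts in the 4 libraries labelled normal and 22 to 72 counts in those labelled steatotic, which is the reverse of what a gene lost from the MC4R-KO mice would give, although a disrupted allele may still be transcribed. All directions between livers below are those of the labels. The macrophage markers were present in every library, with *Adgre1* (F4/80 itself) at 814 to 1739 CPM. With CC, 7 of 8 macrophage markers were lower and 1 higher with the label normal, and 6 lower and 1 higher with the label steatotic. Their summed level was 14399 and 14059 CPM in the normal Veh libraries, 9999 and 10168 in normal CC, 13432 and 13881 in steatotic Veh, and 9203 and 10365 in steatotic CC. The 5 Kupffer cell markers summed to 2742 to 2785 CPM, 2147 to 2362, 3893 to 3971 and 2548 to 3052 in the same order. They were split between livers, with 3 called higher and 2 lower with the label steatotic, with Veh and again with CC. Their log2 fold changes ran from -1.93 to 0.93 with Veh. Of the other cell types in that order, 11 hepatocyte markers summed to 71.6 to 76.2, 64.2 to 73.5, 37.2 to 44.2 and 92.2 to 105 CPM, and *Ass1*, which macrophages can also express, held 85.7 to 98.2 CPM of the last. *Alb* was at 41.0 to 49.4 CPM with the label normal and 1.24 to 2.31 with the label steatotic. The 8 T or NK cell markers summed to 1.81 to 2.48 CPM with the label normal and 14.7 to 18.6 with the label steatotic. The 5 B cell markers reached 3.02 CPM at most. In the same order of groups, the 6 sinusoidal endothelial markers summed to 76.2 to 85.4, 85.4 to 86.6, 165 to 171 and 137 to 139 CPM, with *Pecam1* at a mean of 26.1 CPM in normal and 95.2 in steatotic Veh libraries and *Clec4g* at 0.254 CPM or less in every group mean. The 6 neutrophil markers summed to 90.2 to 91.2, 74.1 to 76.0, 155 to 160 and 144 to 147 CPM, most of it *Csf3r*, with *Ly6g* at 0 in every library. The 5 dendritic cell markers summed to 3.61 to 4.24, 4.85 to 5.54, 9.32 to 9.60 and 7.36 to 8.71 CPM. The endothelial, neutrophil, dendritic and T or NK cell sums were thus higher with the label steatotic, with Veh and with CC. Single markers were split. With Veh, 2 of 5 tested endothelial, 1 of 2 neutrophil and 2 of 5 dendritic cell markers were called higher, and 1 of each lower. For T or NK cells, 7 of 8 were higher and 0 lower. Between livers with CC, 3 endothelial, 1 neutrophil, 1 dendritic and 8 T or NK cell markers were higher, and 1 dendritic cell marker was lower. The 6 stellate cell markers summed to 2.90 and 3.02, 7.55 and 5.91, 21.2 and 18, and 136 and 108 CPM, of which *Dcn* held 135 and 108, while *Col1a1* stayed at or under 0.302 CPM. The part of these cells in the results below was not tested, and fewer cells of a type and less RNA per cell cannot be told apart.

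The first comparison asked how the lysosomal genes of macrophages from steatotic livers stand before any crystal load. With Veh, 24 of the 39 members were lower in the libraries labelled steatotic, 5 were higher and 10 did not pass the test (edgeR quasi-likelihood test, adjusted p under 0.05). Of all tested genes, 14.3% were called lower and 16.4% higher in this comparison. Such shares, here and below, are not matched for level. Every member had 25 CPM or more in every library, while some tested genes barely passed the filter, where small changes are harder to call. With a log2 fold change over 1 in size required as well, 2 members were lower (*Atp6v0c* and *Atp6v1c1*) and 0 higher, against 3.12% and 5.99% of all tested genes. The median log2 fold change was -0.22 over the members and -0.01 over all tested genes. The pump stood lower as a group, with 13 of its 16 subunits lower and 0 higher and a median of -0.33. The hydrolases were split, with 7 lower and 3 higher of 13, as were the membrane proteins, with 2 lower and 2 higher of 7.

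All 8 V1 subunits were lower with the label steatotic, by log2 fold changes from -1.07 to -0.23. *Atp6v1c1*, the C subunit that joins V1 to V0, measured 279 and 274 CPM in the normal Veh libraries and 130 and 125 in the steatotic Veh libraries. The steatotic values were under those of both normal libraries, at 0.475 of the normal level (log2 fold change -1.07, SE 0.0405, adjusted p = 1.9e-06), the lowest ratio of the V1 subunits. *Atp6v1h*, the regulatory H subunit, went from 171 and 162 CPM to 87.3 and 91.1 (-0.85, SE 0.0465, adjusted p = 1.12e-05). *Atp6v1d*, a rotor subunit, differed least in V1, with 197 and 186 against 159 and 158 CPM (-0.23, SE 0.0495, adjusted p = 0.0107). Its call did not pass without normal Veh library 1 or without either steatotic Veh library (largest adjusted p = 0.062). The catalytic subunit *Atp6v1a* (-0.63) and its partner *Atp6v1b2* (-0.40), the stalk subunits *Atp6v1g1* (-0.62) and *Atp6v1e1* (-0.26) and the rotor subunit *Atp6v1f* (-0.52) lay between these.

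In the V0 and accessory group, 5 of 8 were lower. *Atp6v0c*, which forms most of the proton-carrying ring, had 390 and 392 CPM in normal Veh libraries and 110 and 120 in steatotic Veh libraries (log2 fold change -1.72, SE 0.141, adjusted p = 0.000424). Its pseudogene *Atp6v0c-ps2* moved the other way, from 141 and 135 to 179 and 180 CPM (0.43, adjusted p = 0.000271), and the authors' counting could have split reads between the 2 loci. The sum of both, an alternative added after seeing the data, was 530 and 527 against 289 and 300 CPM (-0.80, SE 0.0917, adjusted p = 0.000908). *Atp6v0c* was therefore lower by either count, but by an uncertain amount. *Atp6v0d1*, which couples the ring to V1, was lower by a smaller step (-0.40, adjusted p = 0.000303), as were *Atp6ap2* (-0.26), *Atp6v0a1* (-0.22) and *Tcirg1* (-0.21), the last being the a3 form of the proton channel subunit. *Atp6v0a1* did not pass without normal Veh library 2 or either steatotic Veh library (largest adjusted p = 0.0896). *Atp6v0b* (-0.03) and *Atp6ap1* (-0.06) did not pass. *Atp6v0e*, a small membrane subunit, could not be resolved, since its normal Veh libraries measured 240 and 133 CPM, on either side of the 195 and 189 CPM of the steatotic libraries (0.09, SE 0.383, adjusted p = 0.898).

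**Figure D2:**
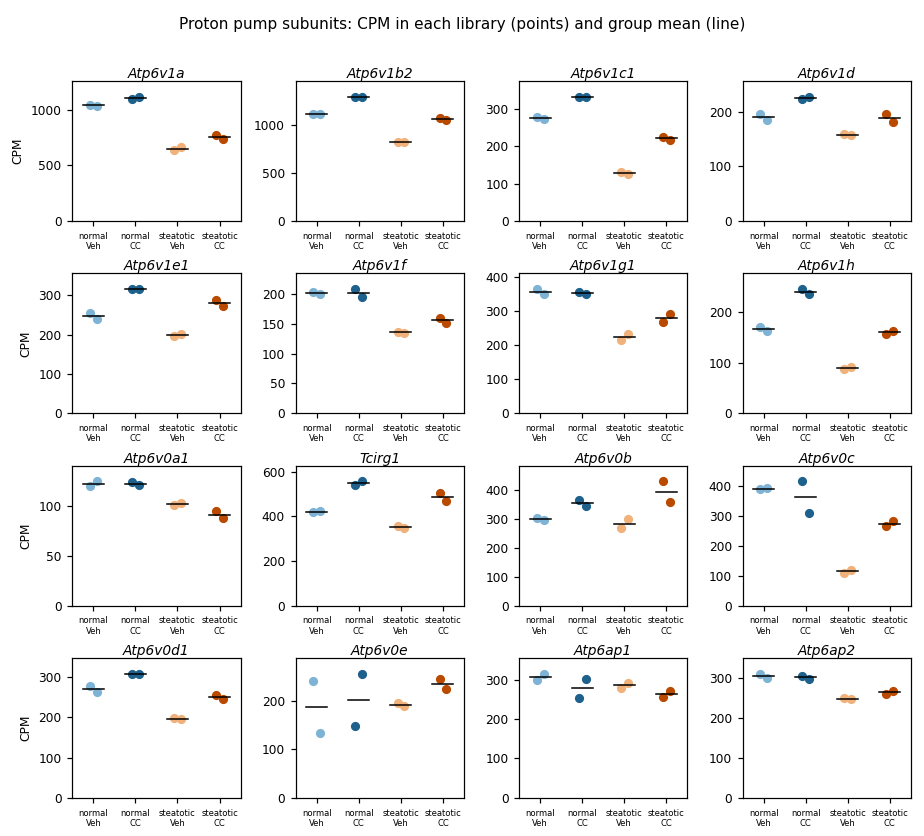
CPM of the 16 proton pump subunits in each of the 8 libraries (points, 2 per group) with the group mean (line), each panel from 0. The steatotic Veh points of *Atp6v1c1* (130 and 125 CPM) lie below its normal Veh points (279 and 274 CPM), and the paired points of *Atp6v0e* lie far apart in the normal groups.

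Among the hydrolases, *Gaa* (acid alpha-glucosidase, which digests glycogen) was the lowest with the label steatotic, with 258 and 263 CPM against 151 and 150 (log2 fold change -0.75, SE 0.0374, adjusted p = 7.08e-06). *Lipa*, the acid lipase that cleaves cholesterol esters, had 1714 and 1680 CPM in normal Veh libraries and 1121 and 1146 in steatotic Veh libraries (-0.54, SE 0.0294, adjusted p = 1.15e-05). *Psap*, the precursor of the saposins that aid sphingolipid digestion, had 14468 and 14587 against 10216 and 10884 CPM (-0.42, adjusted p = 9.04e-05). The protease *Tpp1* (-0.43), the beta-glucuronidase *Gusb* (-0.25), the sialidase *Neu1* (-0.19) and *Hexa* (-0.13) were lower as well, the last at an adjusted p of 0.0455. The call of *Hexa* was lost in 11 of the alternatives, DESeq2 among them (largest adjusted p = 0.237), and that of *Neu1* without any 1 of the Veh libraries (0.12). *Asah1* (acid ceramidase) stood higher, at 548 and 572 CPM against 408 and 406 (0.51, SE 0.0793, adjusted p = 0.00292). *Ppt1* (palmitoyl-protein thioesterase) was higher too, at 174 and 179 against 140 and 133 CPM (0.42, SE 0.0461, adjusted p = 0.000396). *Glb1* (beta-galactosidase) was at 0.15 (adjusted p = 0.0245), a call lost in 8 alternatives, DESeq2 and each of the Veh libraries left out among them (largest adjusted p = 0.13). *Ppt1* shares 129 bp of exon with *Cap1*, on the opposite strand and at 966 to 1250 CPM, and whether counting used strand is not stated. *Smpd1* (0.10), *Gla* (0.07) and *Grn* (-0.07) did not pass.

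Of the membrane proteins, *Laptm5*, a lysosomal protein of blood cells, was higher with the label steatotic, with 1367 and 1295 CPM against 1056 and 1064 (0.37, SE 0.0403, adjusted p = 0.00034). *Lamp2*, an abundant glycoprotein of the lysosomal membrane, was also higher (0.22, adjusted p = 0.00132), whereas its relative *Lamp1* was lower (-0.15, adjusted p = 0.00751). *Mcoln1*, the calcium channel through which lysosomes signal, had 85.6 and 83.9 CPM in normal and 67.2 and 64.7 CPM in steatotic Veh libraries (-0.32, SE 0.0584, adjusted p = 0.00514). *Scarb2* (0.05), *Npc1* (-0.12) and *Npc2* (-0.03) did not pass.

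Among the regulators, *Sqstm1*, which encodes the autophagy receptor p62, had 1965 and 1981 CPM in normal Veh libraries and 1121 and 1078 in steatotic Veh libraries (log2 fold change -0.80, SE 0.0328, adjusted p = 2.98e-06). *Tfeb* had 55.6 CPM in each normal Veh library and 39.9 and 39.5 CPM in the steatotic ones (-0.44, SE 0.0652, adjusted p = 0.00179). *Tfe3* had 178 and 184 against 174 and 177 CPM (0.00, SE 0.0383, adjusted p = 0.975), and its sign depended on the scaling. Across all 8 libraries *Tfe3* spanned 174 to 184 CPM, the narrowest range of the regulators.

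**Figure D3:**
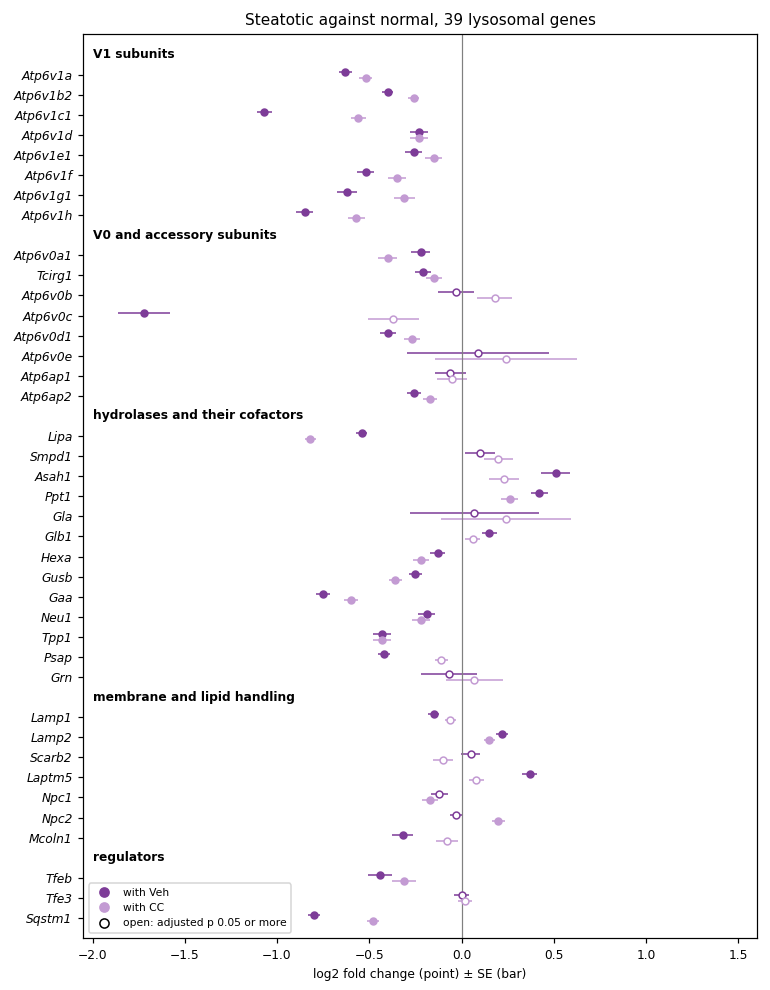
Log2 fold change of the 39 members, steatotic against normal, with Veh (dark) and with CC (light), with bars of 1 SE from the fit over 8 libraries and open points where the adjusted p was 0.05 or more. Of the 16 pump subunits, 13 were lower with Veh and 12 with CC, and the largest distance between the paired points is that of *Atp6v0c*.

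The second comparison asked how macrophages from normal livers responded to CC. Of the members, 11 were higher with CC, 6 lower and 22 did not pass. Of all tested genes, 6.27% were called higher and 5.54% lower. No member also exceeded 1 in size on the log2 scale, as 1.11% (higher) and 0.717% (lower) of all tested genes did. The members' median log2 fold change was 0.05, against -0.00 over all tested genes. The pump accounted for 7 of the 11, with 5 of 8 V1 and 2 of 8 V0 subunits higher and 0 lower. This count depended on single libraries: 11 became 7 without normal Veh library 2, and 6 without either of the normal CC libraries.

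*Sqstm1* had the largest increase of the members, from 1965 and 1981 CPM to 3027 and 3127 (log2 fold change 0.68, SE 0.0327, adjusted p = 3.65e-05). *Atp6v1h* rose from 171 and 162 to 245 and 235 CPM (0.57, SE 0.0462, adjusted p = 0.00031), a 1.48-fold change. *Tcirg1* rose from 418 and 424 to 540 and 558 CPM (0.42, SE 0.0427, adjusted p = 0.000814). *Atp6v1c1* rose from 279 and 274 to 333 and 332 CPM (0.30, SE 0.0401, adjusted p = 0.00281). *Atp6v1e1* (0.39), *Atp6v1d* (0.27), *Atp6v1b2* (0.24) and *Atp6v0d1* (0.23) were the other pump subunits that rose. The calls of *Atp6v1d* and *Atp6v0d1* were lost without normal Veh library 2 or either normal CC library (largest adjusted p = 0.0684 and 0.0676). *Atp6v1g1* had 366 and 351 CPM with Veh and 357 and 351 with CC (0.02, adjusted p = 0.883), with overlapping groups and a sign that turned under library-size scaling. *Atp6ap1*, an accessory subunit, overlapped as well, at 300 and 316 against 254 and 302 CPM (-0.11, adjusted p = 0.455). *Atp6v0c* had 390 and 392 against 416 and 309 CPM (-0.07, SE 0.137, adjusted p = 0.807). *Atp6v1a* (0.13), *Atp6v1f* (0.04), *Atp6v0a1* (0.04), *Atp6v0b* (0.28), *Atp6v0e* (0.15, 148 and 256 CPM with CC) and *Atp6ap2* (0.02) did not pass.

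Of the hydrolases, 3 rose and 4 fell with CC. *Neu1*, which removes sialic acid, had 125 and 123 CPM with Veh and 140 and 138 with CC (0.20, SE 0.0483, adjusted p = 0.0392). *Gaa* moved from 258 and 263 to 293 and 289 CPM (0.20, adjusted p = 0.0142), and *Lipa* from 1714 and 1680 to 1798 and 1782 CPM (0.11, SE 0.0293, adjusted p = 0.0466). The call of *Lipa* was lost in 13 of the alternatives, among them DESeq2 and leaving out any 1 of the libraries (largest adjusted p = 0.198), and that of *Neu1* in 8 (largest adjusted p = 0.162). *Gaa* did not pass without normal Veh library 1 or either normal CC library (0.0858). *Asah1* fell from 408 and 406 to 329 and 285 CPM (-0.37, SE 0.0792, adjusted p = 0.0263), and *Ppt1* from 140 and 133 to 108 and 103 CPM (-0.34, SE 0.0462, adjusted p = 0.0033). *Asah1* did not pass without either normal Veh library, normal CC library 2 or steatotic Veh library 2 (0.126). *Hexa* (-0.30) and *Glb1* (-0.28), which cleave sugars from gangliosides, fell as well. *Grn*, the precursor of the lysosomal granulins, had the lowest log2 fold change of the hydrolases but replicates that stood apart, at 3156 and 2292 CPM with Veh against 1987 and 2007 with CC (-0.41, SE 0.153, adjusted p = 0.179). *Smpd1* (-0.14), *Gla* (0.06), *Gusb* (0.11) and *Tpp1* (0.03) did not pass. *Psap*, at 14468 and 14587 CPM with Veh and 15345 and 14870 with CC (0.09, SE 0.0348, adjusted p = 0.145), did not pass either.

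Of the membrane proteins, *Laptm5* fell from 1056 and 1064 to 834 and 805 CPM (-0.33, SE 0.0403, adjusted p = 0.00175), and *Scarb2*, the carrier that brings glucocerebrosidase to lysosomes, fell by 0.28 on the log2 scale (adjusted p = 0.0137). *Scarb2* did not pass without any 1 of the normal libraries (largest adjusted p = 0.0776). The highest value of this group was that of *Mcoln1*, with 85.6 and 83.9 against 90.9 and 94.4 CPM (0.17, adjusted p = 0.124). *Lamp1* (-0.09), *Lamp2* (-0.11) and *Npc1* (0.09) did not pass. *Npc2* had 2301 and 2236 CPM with Veh and 2317 and 2264 with CC (0.05, SE 0.0331, adjusted p = 0.406), and its groups overlapped. *Tfeb* was at 54.4 and 48.4 CPM with CC (-0.08, adjusted p = 0.533) and *Tfe3* at 177 and 181 CPM (0.02, adjusted p = 0.762).

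The third comparison was the response to CC in macrophages from steatotic livers. Here 18 members were higher with CC, 8 lower and 13 did not pass, and of all tested genes 12.0% were called higher and 10.9% lower. With a log2 fold change over 1 in size, 1 member was higher (*Atp6v0c*) and 0 lower, against 3.50% and 1.55% of all tested genes. The members' median log2 fold change was 0.17, against 0.00 over all tested genes. The pump accounted for 12 of the 18: all 8 V1 subunits and 4 of the 8 V0 and accessory subunits rose, and 0 fell. The summed level of the 16 subunits was 4135 and 4219 CPM with Veh and 5446 and 5270 CPM with CC, while the normal libraries summed to 5985 and 5807 CPM with Veh and 6533 and 6554 with CC. In the same comparison 6 of 8 macrophage markers were called lower and 1 higher, and their part in these counts was not tested.

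By its own count, *Atp6v0c* rose the most among the members, from 110 and 120 to 266 and 282 CPM, a 2.41-fold change (log2 fold change 1.27, SE 0.14, adjusted p = 0.00181). Summed with the pseudogene, the level rose from 289 and 300 to 502 and 505 CPM (0.79, SE 0.0917, adjusted p = 0.00124), a smaller log2 fold change than those of *Sqstm1* (0.99), *Atp6v1h* and *Atp6v1c1*. Among V1 subunits, *Atp6v1h* rose from 87.3 and 91.1 to 157 and 162 CPM (0.85, SE 0.0465, adjusted p = 1.65e-05) and *Atp6v1c1* from 130 and 125 to 226 and 217 CPM (0.82, SE 0.0404, adjusted p = 1.02e-05). The weakest rise in V1 was that of *Atp6v1f*, from 136 and 135 to 160 and 151 CPM (0.22, SE 0.0479, adjusted p = 0.0149), a call lost without either steatotic Veh library or without steatotic CC library 1 (largest adjusted p = 0.0816). *Atp6v1e1* (0.51), *Atp6v1b2* (0.39), *Atp6v1g1* (0.33), *Atp6v1d* (0.27) and *Atp6v1a* (0.24) lay between. In V0, *Tcirg1* rose from 355 and 348 to 504 and 471 CPM (0.49, adjusted p = 0.000158), *Atp6v0b* by 0.49 (adjusted p = 0.0121, and 0.0647 at most with steatotic Veh library 1 left out or with only the compared groups) and *Atp6v0d1* by 0.37 (adjusted p = 0.000664). *Atp6v0a1*, the a1 form of the channel subunit, had 101 and 103 CPM with Veh and 94.8 and 87.7 with CC (-0.14, SE 0.0514, adjusted p = 0.0896). *Atp6ap1* (-0.10), *Atp6ap2* (0.11) and *Atp6v0e* (0.30, SE 0.383) did not pass.

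Of the hydrolases, *Psap* rose from 10216 and 10884 to 13862 and 13726 CPM (0.40, SE 0.0348, adjusted p = 0.000147), *Gaa* from 151 and 150 to 191 and 185 CPM (0.34, adjusted p = 0.000491) and *Neu1* from 104 and 108 to 121 and 113 CPM (0.17, adjusted p = 0.0441). The call of *Neu1* was lost in 12 of the alternatives, DESeq2 among them (largest adjusted p = 0.222). *Asah1* fell the most, from 548 and 572 to 375 and 334 CPM (-0.64, SE 0.0794, adjusted p = 0.00123). *Ppt1* fell from 174 and 179 to 121 and 126 CPM (-0.50, adjusted p = 0.000217). *Hexa* (-0.39), *Glb1* (-0.37) and *Lipa* (-0.17, from 1121 and 1146 to 989 and 1002 CPM, SE 0.0293, adjusted p = 0.00473) fell as well. *Smpd1* (-0.04), *Gla* (0.22), *Gusb* (-0.00), *Tpp1* (0.02) and *Grn* (-0.28) did not pass.

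Of the membrane proteins, *Mcoln1* rose from 67.2 and 64.7 to 90.2 and 81.8 CPM (0.40, SE 0.0585, adjusted p = 0.00213), and *Npc2*, which hands cholesterol to NPC1, from 2115 and 2177 to 2537 and 2630 CPM (0.28, SE 0.0331, adjusted p = 0.000683). *Npc1* itself had 341 and 352 CPM with Veh and 362 and 345 with CC (0.05, adjusted p = 0.548), so that the groups overlapped. *Laptm5* fell from 1367 and 1295 to 866 and 832 CPM (-0.63, SE 0.0404, adjusted p = 3.31e-05), *Scarb2* by 0.43 (adjusted p = 0.00089) and *Lamp2* by 0.17 (adjusted p = 0.00553) on the log2 scale. *Lamp1* was at -0.00 (adjusted p = 0.981). *Sqstm1* rose from 1121 and 1078 to 2152 and 2174 CPM, 1.99-fold (0.99, SE 0.0329, adjusted p = 2.59e-06). The transcripts of the transcription factors did not pass, with *Tfeb* at 41.0 and 40.7 CPM with CC (0.06, adjusted p = 0.614) and *Tfe3* at 180 and 178 CPM (0.05, adjusted p = 0.457).

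The calls of the 2 responses, which share no library, were compared next. Of the 11 higher with the label normal, 10 (90.9%) were among the 18 higher with the label steatotic, of which they were 55.6%, and *Lipa* was the exception. Over all tested genes, the shared calls were 83.7% of those higher with the label normal and 43.8% of those higher with the label steatotic. The 6 that were lower with the label normal were 100% shared and made up 75% of the 8 lower with the label steatotic, with *Lamp2* and *Lipa* added, against 79.2% and 40.4% over all tested genes. The members higher with the label steatotic but not called with the label normal were *Atp6v1a*, *Atp6v1f*, *Atp6v1g1*, *Atp6v0b*, *Atp6v0c*, *Psap*, *Mcoln1* and *Npc2*. A call with one label and not the other does not show a difference, which was tested separately.

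**Figure D4:**
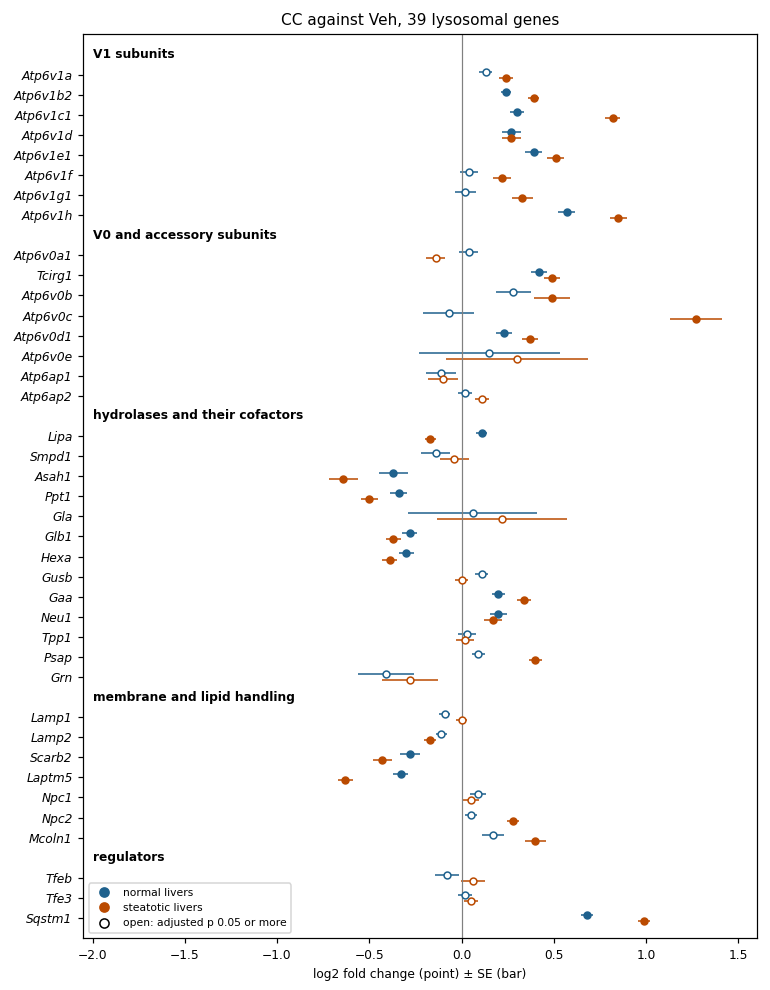
Log2 fold change with CC against Veh of the 39 members in the libraries labelled normal (blue) and steatotic (orange), with bars of 1 SE from the fit over 8 libraries and open points where the adjusted p was 0.05 or more. The V1 subunits and *Sqstm1* lie to the right of 0 with both labels, and *Asah1*, *Ppt1*, *Glb1*, *Hexa*, *Scarb2* and *Laptm5* to the left.

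The difference between the 2 responses to CC passed the test for 7 of the 39 members, 5 with a higher and 2 with a lower response with the label steatotic. Of all tested genes 1.95% were called higher and 1.27% lower in this test, and 0.710% and 0.197% with a difference over 1 in size, which *Atp6v0c* had. Among the pump subunits they were *Atp6v0c* (difference 1.34, SE 0.195, adjusted p = 0.0274) and *Atp6v1c1* (0.51, SE 0.0567, adjusted p = 0.00507). The difference for *Atp6v0c* summed with its pseudogene was 0.82 (SE 0.129, adjusted p = 0.0252). *Sqstm1* (0.32, adjusted p = 0.0122), *Psap* (0.31, adjusted p = 0.0174) and *Npc2* (0.23, adjusted p = 0.0434) also rose more with the label steatotic. *Laptm5* fell more (-0.30, adjusted p = 0.0369), and *Lipa* (-0.28, adjusted p = 0.0122) stood in opposite directions, at 0.11 with the label normal and -0.17 with the label steatotic. *Atp6v1h* (0.29, SE 0.0653, adjusted p = 0.0672) and *Atp6v1g1* (0.31, SE 0.079, adjusted p = 0.0942) did not pass.

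These calls rested on single libraries more than the others did. The 5 higher became 2 without normal Veh library 1, 1 without normal Veh library 2, 2 without steatotic CC library 1 and 3 without any other library, and 3 with the replicate number as a block. The 2 lower became 0 without either normal CC library and 1 without either normal Veh library, either steatotic Veh library or steatotic CC library 2. *Npc2* did not pass in 10 alternatives, *Atp6v0c* in 8 and *Laptm5* in 6 (largest adjusted p of the 3 genes 0.154). *Psap* (0.0755) did not pass without either normal Veh library, normal CC library 2 or steatotic CC library 1, *Lipa* (0.0586) without either normal CC library or steatotic Veh library 2, and *Sqstm1* (0.0571) without normal Veh library 2 or normal CC library 1. In the annotation of GRCm38, *Atp6v1c1* (ENSMUSG00000022295.8) lies on chromosome 15 from 38661933 to 38692446, *Atp6v0c* (ENSMUSG00000024121.13) on chromosome 17 from 24163866 to 24169702, *Sqstm1* (ENSMUSG00000015837.15) on chromosome 11 from 50199366 to 50210827, and *Lipa* (ENSMUSG00000024781.16) on chromosome 19 from 34492318 to 34527474. *Psap* (ENSMUSG00000004207.14) lies on chromosome 10 from 60277627 to 60302597, *Npc2* (ENSMUSG00000021242.9) on chromosome 12 from 84754562 to 84773152, and *Laptm5* (ENSMUSG00000028581.17) on chromosome 4 from 130913125 to 130936141.

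With CC present in both livers, 21 members were lower with the label steatotic, 3 were higher and 15 did not pass, against 12.9% lower and 15.9% higher of all tested genes. No member exceeded 1 in size on the log2 scale, as 2.37% (lower) and 6.04% (higher) of all tested genes did. The median was -0.17 over the members and 0.00 over all tested genes. The 3 higher became 5 without steatotic CC library 2. Again all 8 V1 subunits were lower, from *Atp6v1h* (245 and 235 against 157 and 162 CPM, -0.57, adjusted p = 9.84e-05) to *Atp6v1e1* (316 and 316 against 287 and 272 CPM, -0.15, adjusted p = 0.043, lost in 8 alternatives). In V0 the lowest was *Atp6v0a1* (124 and 121 against 94.8 and 87.7 CPM, -0.40, adjusted p = 0.00106), and *Atp6v0c* did not pass, alone (-0.37, adjusted p = 0.102) or summed with its pseudogene (0.02, adjusted p = 0.901). The highest log2 fold change in V0 was that of *Atp6v0e*, which did not pass, with 148 and 256 CPM in normal CC and 245 and 224 in steatotic CC libraries (0.24, SE 0.383, adjusted p = 0.712). *Lipa* was at 0.566 of the normal level with CC (1798 and 1782 against 989 and 1002 CPM, -0.82, SE 0.0295, adjusted p = 1.79e-06), the lowest of the members. *Sqstm1* was also lower (-0.48, adjusted p = 3.55e-05), as were *Gaa* (-0.60), *Tcirg1* (-0.15, adjusted p = 0.0389) and *Tfeb* (-0.31, adjusted p = 0.0107). *Ppt1* (0.26, adjusted p = 0.00495), *Npc2* (0.20, adjusted p = 0.00343) and *Lamp2* (0.15, adjusted p = 0.00845) were higher. *Npc1* was lower (-0.17, adjusted p = 0.0251), with 417 and 394 against 362 and 345 CPM. The call of *Tcirg1* was lost in 9 alternatives (largest adjusted p = 0.179). Those of *Npc1* (0.143), *Neu1* (0.0645) and *Tfeb* (0.0589) were lost without normal CC library 1 or steatotic CC library 2, that of *Atp6ap2* (0.0826) without library 1 of either CC group, that of *Atp6v1d* (0.06) without library 2 of either CC group, and that of *Lamp2* (0.0645) without normal CC library 2. Of the 24 members lower with Veh, 20 were also lower with CC (83.3% of the 24 and 95.2% of the 21), in comparisons that share no library. Over all tested genes these shares were 61.9% and 68.6%.

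**Figure D5:**
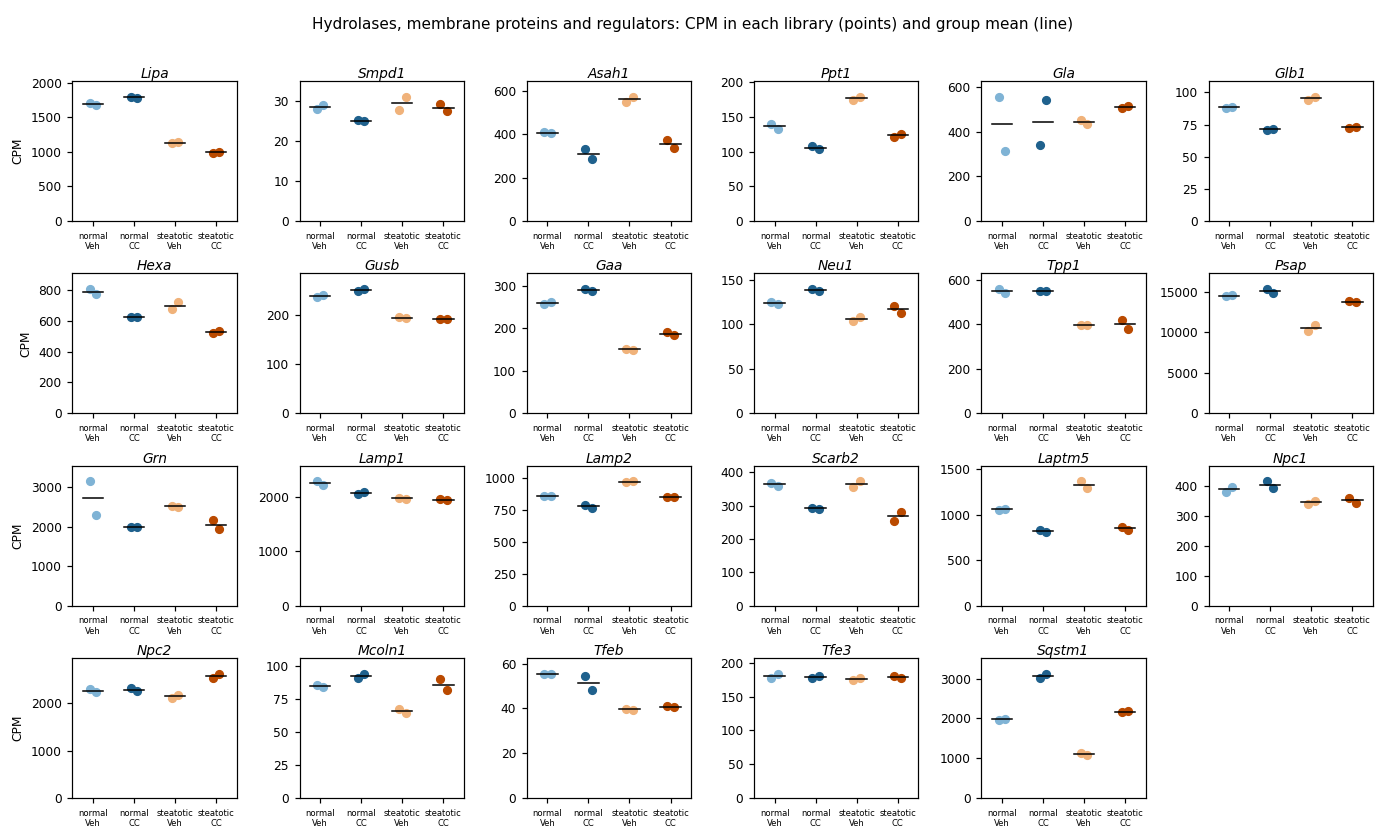
CPM of the 13 hydrolases and cofactors, 7 membrane and lipid handling proteins and 3 regulators in each of the 8 libraries (points, 2 per group) with the group mean (line), each panel from 0. *Lipa* is lowest in the steatotic CC libraries (989 and 1002 CPM), *Sqstm1* rises with CC with both labels, and the points of *Gla* lie apart in the normal groups.

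Set against normal livers without crystals, the steatotic CC libraries were below both normal Veh libraries for 28 of the 39 members (71.8%) and above both for 5 (12.8%). Of all tested genes, 39.6% were below and 29.0% above. These counts used CPM scaled to library totals alone. The TMM factors of the test were 1.03 and 1.02 in normal Veh and 0.981 and 0.983 in steatotic CC libraries. Applying them would move the steatotic CC levels up against normal Veh. Small gaps, such as that of *Lamp2* (860 and 859 against 852 and 849 CPM), therefore depend on the scaling. Of the pump subunits 11 of 16 were below, and of the hydrolases 11 of 13. Thus *Atp6v1c1*, at 226 and 217 CPM in steatotic CC libraries, did not reach the 279 and 274 CPM of normal Veh libraries, whereas *Sqstm1*, at 2152 and 2174, exceeded the 1965 and 1981 CPM there.

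Within gene pairs, levels were compared per exon length in each library. This length is that of all annotated exons of a gene merged, which can exceed that of the transcript expressed. The size of a ratio between 2 genes therefore depends on the annotation, while its change between groups does not. The level per kb of *Tcirg1* was 4.80 to 5.02 times that of its paralog *Atp6v0a1* in the 4 Veh libraries, 6.23 and 6.58 times in normal CC and 7.57 and 7.65 times in steatotic CC libraries. *Tfe3* exceeded its paralog *Tfeb* per kb by a ratio of 1.96 to 2.29 with the label normal and 2.67 to 2.73 with the label steatotic. *Lamp1* exceeded *Lamp2* by 9.22 to 9.73 times with the label normal and 7.16 to 8.18 times with the label steatotic. *Npc2* exceeded its partner *Npc1* by 11.6 to 12.5 times with the label normal, 12.9 times in each steatotic Veh library and 14.6 and 15.8 times in steatotic CC libraries.

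Beyond the members, 145 further genes of the pump, the lysosome and autophagy were described, of which 138 were tested. With Veh, 29 were higher and 35 lower with the label steatotic (21.0% and 25.4%, against 16.4% and 14.3% of all tested genes, median -0.04). With CC, 24 were higher and 16 lower with the label normal (17.4% and 11.6%, against 6.27% and 5.54%, median 0.02). With the label steatotic, 36 were higher and 25 lower with CC (26.1% and 18.1%, against 12.0% and 10.9%, median 0.03). *Atp6v0d2*, the second form of the pump's d subunit, had 77.1 and 74.6 CPM in normal Veh libraries and 69.3 and 66.7 in steatotic Veh libraries. With CC it stood at 159 and 162 CPM with the label normal (log2 fold change 1.11, adjusted p = 6.97e-05) and at 262 and 231 CPM with the label steatotic (1.88, adjusted p = 2.87e-06), a larger log2 fold change with CC than that of any member. *Lgals3*, which encodes galectin-3, a protein that marks damaged lysosomes, had 7070 and 6676 CPM in normal Veh, 6497 and 6701 in normal CC, 3219 and 3332 in steatotic Veh and 5158 and 4971 in steatotic CC libraries. It thus rose with CC with the label steatotic (0.65, adjusted p = 2.63e-05) and not detectably with the label normal (-0.02, adjusted p = 0.789), a difference of 0.67 (adjusted p = 0.00185).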

How the data were processed

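RNA of hepatic macrophages was sequenced in 8 libraries (paired-end reads, poly(A) selection). The authors used fastp for trimming, HISAT2 for alignment to mm10 and StringTie for quantification (versions not given in the sources used here), and deposited estimated counts (expected counts) per gene, whole numbers without normalization. The conversion of coverage to counts is not described. In each library 35.0% to 36.5% of values from 1 to 20 were multiples of 4, against 23.9% to 27.0% of larger values, so 1 fragment may stand for about 4 counts and counting error is then understated. Counts were used as deposited, with counts divided by 4 as an alternative.

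Genes that reached 0.5 CPM in any library were tested with edgeR 4.0.16 in R 4.3.3 (glmQLFit with robust estimation, glmQLFTest, TMM factors 0.981 to 1.03) in 1 model of 4 group means, with Benjamini-Hochberg adjustment over all 15202 tested genes in each comparison and a threshold of 0.05. CPM values were scaled to library totals alone. SE is the size of the log2 fold change divided by the square root of the F statistic. With 2 libraries a group, a permutation test of single values cannot reach the threshold. Replicates of a group correlated at r 0.983 to 0.985 across genes. Libraries with the same replicate number did not deviate together (r -0.00485 to 0.0629), so the number was not used as a block. On simulated data, 170 of 200 changed genes (log2 change of 1, CC against Veh, normal) were recovered and 15 unchanged genes called. The changed genes were drawn from those well above the filter. Smaller changes, like most of those called here, were not simulated. Exon lengths and positions are from GENCODE M21, promoter windows from RefSeq (GRCm38.p6). Figures were drawn with matplotlib 3.10.9.

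The members and lists were chosen with earlier results of these data known. All members are named. Values in every library are given for the regulators, for the members with the highest and lowest log2 fold change of each subclass in each comparison of 2 groups, and for those whose CC responses differed. Genes of the other lists are named where they had the 3 highest or lowest log2 fold changes among those called with Veh or with CC (both CC responses are given where either qualified, steatotic against normal with CC by counts), except for 1 gene that is not reported here. Alternatives were DESeq2 1.42.0, edgeR with the size factors of DESeq2 or with library size alone, other filters, a prior count of 4 in place of 0.125, the replicate block, only the groups compared, each library left out in turn and an added requirement on the size of the change. The sum of *Atp6v0c* and its pseudogene was added after seeing the data. The hepatocyte marker *Tf* was not analysed here.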

Additional observations from a re-analysis of the deposited data

Results flagged for a closer look

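The response to CC differed between the libraries labelled normal and steatotic, by the edgeR test of the difference itself (log2 fold change with the label steatotic minus that with the label normal), for 7 members: *Atp6v1c1* by 0.51, *Atp6v0c* by 1.34, *Lipa* by -0.28, *Psap* by 0.31, *Laptm5* by -0.30, *Npc2* by 0.23 and *Sqstm1* by 0.32. The effects behind these differences, with their errors, are given in the report, and each rests on 2 libraries per group.

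Of the 138 other lysosomal genes tested, 16 differed by the same test, 10 with a higher response (7.25%) and 6 with a lower one (4.35%). Of all tested genes, 1.95% and 1.27% did. Higher responses with the label steatotic were measured for the pump subunit *Atp6v0d2* (0.76), the pump assembly factor *Ccdc115* (0.64), the acetyltransferase *Hgsnat* (0.30), the hyaluronidase *Hyal1* (0.68), *Cd63* (0.29), the chloride transporter *Clcn7* (0.46), the channel *Mcoln2* (0.39), the GTPase *Rragd* (1.16), the autophagy receptor *Tax1bp1* (0.33) and *Lgals3* (0.67). Lower responses were measured for the mannosidases *Manba* (-0.71) and *Man2b1* (-0.47), the phospholipase *Pla2g15* (-0.87), the protease *Lgmn* (-0.35), the transporter *Slc15a4* (-0.37) and the lipid transfer protein *Osbpl11* (-0.42). *Ccdc115* fell with both labels (-1.04 and -0.40), and *Rragd* rose with both (0.49 and 1.65). The calls of *Slc15a4* (largest adjusted p = 0.136) and *Mcoln2* (0.156) were lost in 9 alternatives each, those of *Ccdc115* (0.11) and *Cd63* (0.132) in 8, those of *Tax1bp1* (0.064) and *Osbpl11* (0.0715) in 4, that of *Hgsnat* (0.0625) in 3, that of *Rragd* (0.0598) in 2 and those of *Manba* (0.0501) and *Man2b1* (0.0505) in 1. Those of *Atp6v0d2*, *Pla2g15*, *Lgmn*, *Hyal1*, *Clcn7* and *Lgals3* were lost in 0 of the alternatives run.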

How the results depend on the processing

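Of 2617 values of named genes recomputed with all libraries kept, 2533 kept their direction and their side of the threshold, 79 no longer passed, 1 newly passed and 4 changed sign. With each library left out, 1816 of 2112 did so, 284 no longer passed, 2 newly passed and 10 changed sign. A group left with 1 library is assumed to vary like the others. Requiring a log2 fold change over 1 in size left 0 members higher and 2 lower with Veh, 0 and 0 with CC with the label normal, 1 and 0 with the label steatotic, 0 and 0 between livers with CC, and 1 and 0 in the difference of responses. With the replicate number as a block, 3 members were higher in the difference of responses, and no other count of called members moved by over 1.5 times. Leaving out 1 library gave 4 to 5 higher and 20 to 23 lower members with Veh, 6 to 12 and 4 to 6 with CC with the label normal, 15 to 18 and 8 to 9 with the label steatotic, 2 to 5 and 15 to 21 between livers with CC, and 1 to 3 and 0 to 2 in the difference. The signs that changed were all of values that did not pass. With library size only, *Tfe3* was at -0.04 with Veh, -0.01 with CC with the label normal and -0.00 between livers with CC, and *Atp6v1g1* at -0.02 with CC with the label normal. With 1 library left out, *Tfe3* ranged from -0.02 to 0.03 with Veh (also -0.01) and from -0.01 to 0.05 in the difference, *Atp6v0e* from -0.27 to 0.57 with Veh and from -0.11 to 0.68 between livers with CC, and with CC with the label normal *Atp6v1g1* from -0.01 to 0.05, *Atp6ap1* from -0.24 to 0.01, *Tfeb* from -0.16 to 0.00 and *Lgals3* from -0.06 to 0.02 (also 0.00). The causes of these changes were not tested. The depth limits no member, since all lay far above the filter.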

Other observations

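The counts of the lists below stand beside 6.27% higher and 5.54% lower of all tested genes with CC with the label normal, 12.0% and 10.9% with CC with the label steatotic, and 16.4% and 14.3% with Veh between livers. The hydrolases outside the 39 members moved in both directions. With Veh, *Hyal1* (log2 fold change -1.94), *Hgsnat* (-1.77) and *Pld3* (-1.18) were lower with the label steatotic, and *Sort1* (1.86), *Manba* (1.12) and *Sgsh* (1.10) were higher. With CC, *Hyal1* (0.71 with the label normal and 1.39 with the label steatotic) and *Hgsnat* (0.31 and 0.60) rose with both labels. *Pla2g15* (-0.76 and -1.63), *Sgsh* (-0.97 and -1.45), *Ids* (-0.62 and -0.70) and *Man2b1* (-0.61 and -1.08) fell with both. Of 36 hydrolases and cofactors in that list, 4 rose and 7 fell with the label normal, and 6 rose and 12 fell with the label steatotic.

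Among 30 tested membrane proteins and transporters, 7 rose and 2 fell with CC with the label normal and 11 rose and 5 fell with the label steatotic. *Slc15a3* (0.83 and 0.97), *Mcoln2* (0.54 and 0.92) and *Slc29a3* (0.42 and 0.49) rose with both labels, and *Mcoln3* was called with the label steatotic (0.04 and 1.47). *Laptm4a* fell with both (-0.28 and -0.43), while *Sidt2* (-0.25 and -0.18) was called with the label normal and *Tpcn1* (-0.38 and -0.62) and *Slc17a5* (-0.18 and -0.40) with the label steatotic. The call of *Sidt2* was lost in 6 alternatives (largest adjusted p = 0.136) and that of *Mcoln3* in 2 (0.0653). With Veh, *Tpcn1* (0.80), *Slc15a4* (0.76) and *Laptm4a* (0.50) were higher with the label steatotic, and *Abcd4* (-1.48), *Cd68* (-0.74) and *Mcoln2* (-0.46) were lower, with 8 of 30 called in each direction.

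Of the 11 tested pump and assembly genes outside the members, *Atp6v0d2* was named above. *Tmem199* (0.32 and 0.46) and *Wdr7* (0.25 and 0.25) rose with CC with both labels, *Ccdc115* fell with both (-1.04 and -0.40) and *Rogdi* was called lower with the label steatotic (-0.13 and -1.01). With the label normal the call of *Wdr7* was lost in 8 alternatives (largest adjusted p = 0.153) and that of *Tmem199* in 4 (0.0792), and with the label steatotic those of *Rogdi* (0.129), *Wdr7* (0.113) and *Ccdc115* (0.0799) in 5, 3 and 2. With Veh, *Dmxl2* (0.94) and *Dmxl1* (0.34) were higher with the label steatotic and *Ccdc115* (-1.30) and *Tmem199* (-0.24) lower, the calls of *Tmem199* (0.107) and *Dmxl1* (0.0719) being lost in 5 and 3 alternatives.

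Of 21 tested genes of the MiT/TFE and mTORC1 list, 4 rose and 2 fell with CC with the label normal and 7 rose and 0 fell with the label steatotic (edgeR). *Rragd* (0.49 and 1.65) and *Fnip2* (0.47 and 0.47) rose with both labels, *Rragc* (0.19 and 0.10) was called with the label normal and *Tsc1* (0.18 and 0.37) with the label steatotic, while *Lamtor2* (-0.27 and -0.15) and *Lamtor4* (-0.26 and -0.08) were called lower with the label normal. With that label the calls of *Rragd* (largest adjusted p = 0.193), *Lamtor2* (0.142), *Lamtor4* (0.103) and *Rragc* (0.109) were lost in 7, 4, 3 and 3 alternatives. With Veh, *Rragd* (-1.51), *Lamtor3* (-1.39) and *Tsc2* (-0.51) were among 7 that were lower with the label steatotic, and 0 were higher. Of 22 autophagy genes, 5 rose and 2 fell with the label normal and 5 rose and 4 fell with the label steatotic. *Tax1bp1* (0.22 and 0.55) rose and *Calcoco1* (-0.42 and -0.51) and *Atg9a* (-0.27 and -0.43) fell with both. *Vps18* (0.36 and 0.43), *Optn* (0.21 and 0.57) and *Gabarapl1* (0.19 and 0.45) were called higher with both labels, *Plekhm1* (0.30 and 0.09) with the label normal, and *Ulk1* (-0.20 and -0.21) was called lower with the label steatotic. The call of *Ulk1* was lost in 12 alternatives, DESeq2 and each library left out among them (largest adjusted p = 0.203). With the label normal the calls of *Optn*, *Gabarapl1* and *Atg9a* were lost in 13, 12 and 8 alternatives (largest adjusted p = 0.174, 0.197 and 0.164). With Veh, *Becn1* (0.41) and *Ulk1* (0.28) were higher with the label steatotic and *Optn* (-0.73), *Gabarapl1* (-0.42) and *Map1lc3a* (-0.36) lower, the calls of *Map1lc3a* (0.127) and *Ulk1* (0.0775) being lost in 4 and 2 alternatives. Of 18 damage response genes, 1 rose (5.56%, under the share of all tested genes) and 2 fell (11.1%) with the label normal, and 4 rose (22.2%) and 2 fell (11.1%) with the label steatotic. *Pi4k2a* (0.36 and 0.47) rose and *Osbpl9* (-0.22 and -0.23) and *Osbpl11* (-0.22 and -0.63) were called lower with both labels, and *Tecpr1* (0.13 and 0.57) was called higher with the label steatotic. The call of *Osbpl9* was lost in 11 alternatives with the label normal (largest adjusted p = 0.217) and in 3 with the label steatotic (0.112), and that of *Osbpl11* in 5 with the label normal, the groups compared alone and each normal library left out. With Veh, *Lgals1* (1.65), *Lrrk2* (1.25) and *Osbpl11* (0.47) were higher with the label steatotic, and *Lgals3* (-1.02), *Vcp* (-0.22) and *Ubqln1* (-0.14) lower, the last pair lost in 7 (0.151) and 9 (0.197) alternatives.

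With CC in both livers, 36 of the 138 tested genes of these lists were higher and 29 lower with the label steatotic, against 15.9% and 12.9% of all tested genes.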
